A study of Arabidopsis thaliana with 15 samples.

Results

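The loss of the antiporter gene NHX6 from Arabidopsis thaliana plants that already lacked NHX5 was followed in the transcripts of rosette leaves. The comparison set 3 arrays of the double knockout nhx5-2/nhx6-2 against 3 arrays of the single knockout nhx5-2, which are 6 of the 15 arrays of the study, over all 22746 probe sets that are not controls. Both lines carry nhx5-2, a T-DNA insertion of the GABI collection, so that the nhx6-2 insertion, from the SALK collection, is the labelled difference between them. The other groups, with 3 arrays each, were wild type, nhx6-2 alone, and nhx5-1/nhx6-1, a double knockout made of other insertions, one of the WiscDsLox and one of the SALK collection. All plants were of the accession Columbia, 4 weeks old and kept on soil with 8 h of light and 16 h of darkness a day. Replicates are biological per the labels, which do not say how many plants were pooled, and each allele is 1 insertion line.

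NHX5 and NHX6 are closely related transporters in the membranes of the Golgi apparatus, the trans-Golgi network and late endosomes. They move potassium or sodium ions into these compartments in exchange for protons, which keeps the compartments from becoming too acidic. Plants lacking both are known for small size and for errors in the sorting of proteins to the vacuole, whereas plants lacking one of them look much like wild type, and the comparison therefore asks what the second loss adds to the first.

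Values are those deposited. They behave like logarithms, but the sources used here do not state a base, so differences are in deposited units. On the hybridization spike-ins 1 unit corresponded to about 2.77-fold, and the fold values given below rest on that yardstick. A probe set rose, fell or changed when its adjusted p in the limma fit was under 0.05. In leaf RNA, fewer cells of a type and less RNA per cell cannot be told apart.

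Before the results, 3 properties of the arrays need stating. First, nhx5-2 replicate 1 stood apart: its values had an SD of 0.802 over probe sets, against 0.891 and 0.896 on nhx5-2 replicates 2 and 3 and 0.883 to 0.891 on the double knockout arrays. Its control probe sets without a target lay at a median of −0.61, against −0.80 to −0.71 on the other 5 arrays. The nhx5-2 arrays correlated with each other at r = 0.978 to 0.995 across probe sets, the double knockout arrays at 0.991 to 0.996, and arrays of the different groups at 0.962 to 0.980. Second, the 3′ minus 5′ signal of the actin and GAPDH control probe sets, a measure that grows as RNA is degraded, was 1.51 ± 0.061 units in nhx5-2 (SD, n = 3; 1.45 to 1.57) and 1.98 ± 0.20 in nhx5-2/nhx6-2 (1.75 to 2.14). The groups did not overlap in it, so it moved with the comparison. It also separated nhx6-2, at 1.55 to 1.69, from wild type, in the opposite direction. It was 1.86 ± 0.099 in wild type (1.79 to 1.97), within the range of the double knockout. Double knockout replicates 1 and 3, at 2.04 and 2.14, lay above every wild type array. Wild type levels are given beside the leading genes as values alone. Last, NHX5 and NHX6 have no listed probe set, so that their own transcripts were not analysed here.

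**Figure D1:**
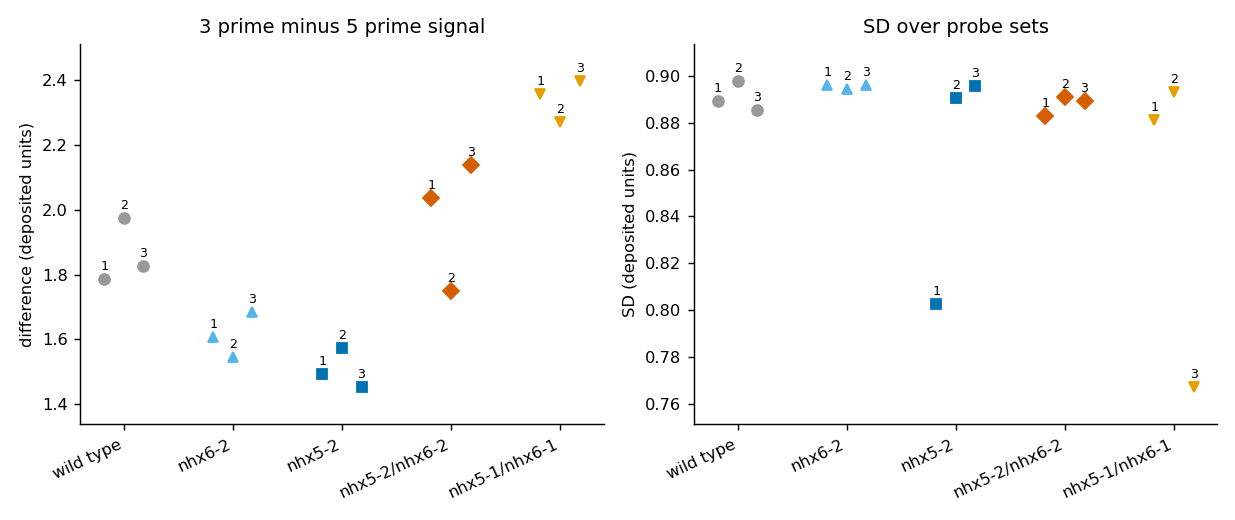
Left, 3′ minus 5′ signal of the actin and GAPDH control probe sets and, right, SD over probe sets, both in deposited units, for each of the 15 arrays by genotype, with the replicate number above each point. The nhx5-2 arrays lie at 1.45 to 1.57 and the nhx5-2/nhx6-2 arrays at 1.75 to 2.14 on the left, and nhx5-2 replicate 1 (0.802) and nhx5-1/nhx6-1 replicate 3 (0.767) have the lowest SD on the right.

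The shared nhx5-2 background could be followed through AT2G32500, a gene of the stress responsive A/B barrel type. It stood at −0.63, −0.73 and −0.71 on the nhx5-2 arrays and at −0.77, −0.78 and −0.68 on the double knockout arrays, against a mean of 1.35 in wild type and 1.37 in nhx6-2. All 6 arrays were thus near the level of probe sets without a target and the groups overlapped, as their labels have it. AT2G32500 was chosen with earlier results of these data known, so it is no independent check of the labels. Around NHX6, 8 probe sets were listed among the 10 nearest genes on each side, none of which passed the test, with differences from −0.15 to 0.53 units. Around NHX5, whose insertion both lines carry, 12 probe sets were listed and 3 passed: AT1G54410 differed by 0.70 units, EIF4A-2 by −0.40 and AT1G54310 by −0.24. Over all probe sets 5.45% passed, and 13.4% did in the brightest of 5 equal bins by level. AT1G54410 and EIF4A-2 were bright, at means of 2.94 and 2.05 in nhx5-2, and a local effect was not tested.

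Loss of NHX6 from the nhx5-2 background changed 1239 of the 22746 probe sets (5.45%), 628 higher (2.76%) and 611 lower (2.69%). The median size of these changes was 0.41 units, and 58 reached 1 unit, 41 of them higher and 17 lower. Of the 1239, 635 had exactly 1 gene, 320 higher and 315 lower. The arrays of the groups did not overlap for 1236 of the 1239, against 29.5% of all probe sets tested. An exact test of 3 against 3 arrays cannot go below p = 0.1, so the calls rest on the spread shared by all 15 arrays. Bright probe sets gave more calls: split by level into 5 equal bins, 13.4% of the brightest bin passed and 0.022% of the dimmest. In the brightest bin 324 of 4549 rose and 286 fell. A share over all probe sets is thus a low yardstick for lists of bright genes.

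The count depended on single arrays. It was 930 without nhx5-2 replicate 1, with 328 higher and 602 lower, 694 and 623 without nhx5-2 replicates 2 and 3, and 359, 651 and 616 without nhx5-2/nhx6-2 replicates 1, 2 and 3. With arrays shifted to a common median it was 911, of which 63.7% were higher, against 50.7% as deposited. With the 3′ minus 5′ signal entered as covariate, 1 probe set without a listed gene passed. In that fit 1234 of the 1239 kept their sign, their median size was 0.31 units, and the median standard error rose from 0.0855 to 0.159.

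The 15 largest falls and the 15 largest rises were named by a rule that required no overlap between the groups. The falls were led by a pair of acid phosphatase-like genes. AT5G44020 stood at 1.93, 2.19 and 2.37 units on the nhx5-2 arrays and at −0.24, −0.25 and −0.13 on the double knockout arrays. Every nhx5-2 array lay more than 2 units above every double knockout array, and wild type, with a mean of 2.22, and nhx6-2, with 2.03, lay with nhx5-2. The difference was −2.37 ± 0.16 units (SE), about 11.2-fold lower, with an adjusted p of 2.39e-05. AT1G04040 stood at 1.36, 1.58 and 1.70 in nhx5-2 and at −0.21, −0.25 and −0.21 in the double knockout, again without overlap and with wild type at a mean of 1.67. It fell by 1.77 ± 0.13 units (SE), about 6.06-fold, with an adjusted p of 2.39e-05.

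AT3G16670, a secreted protein gene of the Ole e 1 and extensin family, stood at 1.85, 2.01 and 1.87 in nhx5-2 and at 0.49, 0.18 and 0.49 in the double knockout. No array of one group reached the other, and the difference was −1.52 ± 0.16 (SE, adjusted p 0.000574). AT1G29660, a GDSL-type lipase gene, stood at 2.96, 3.19 and 3.33 against 1.98, 2.01 and 1.91, a difference of −1.19 ± 0.14. The pectin lyase-like gene AT4G23820 stood at 0.70, 0.89 and 1.14 against −0.13, −0.25 and −0.15, a difference of −1.08 ± 0.14. Both sets of values lay apart, and wild type means were 3.26 and 0.96. A pair of genes of the pectin methylesterase and inhibitor family, which modify pectin or restrain the enzymes that do so, fell as well. AT1G23205 went from 0.67 ± 0.078 to −0.37 ± 0.012 (mean ± SD, n = 3) and AT3G10720 from 0.87 ± 0.21 to −0.063 ± 0.024. TBL45, of a family that acetylates wall polysaccharides, fell by 0.88 ± 0.12 units (SE), and AT4G16980, an arabinogalactan protein family gene, fell by 1.01 ± 0.16. The arrays of the groups did not overlap for any of these, which the naming rule required. A second probe set of AT4G16980 was dim, differed by −0.13 and did not pass (adjusted p 0.279), so the probe sets of that gene do not give the same call.

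The other falls among the 15 had varied roles. SWEET2, a sugar transporter of the vacuole membrane, stood at 1.28, 1.36 and 1.40 in nhx5-2 and at 0.46, 0.50 and 0.36 in the double knockout. The groups lay apart, and the difference of −0.905 ± 0.073 (SE, adjusted p 5.14e-05) had the smallest standard error among the 15 falls. AT3G09440, a cytosolic chaperone of the HSC70 group that helps proteins fold, fell by 0.904 ± 0.11 units, and AT3G54400, an aspartyl protease gene, by 0.87 ± 0.14. The leucine-rich repeat gene AT1G33600 fell by 0.88 ± 0.12, and AT2G10940, of the family of lipid transfer and seed storage proteins, by 0.95 ± 0.24. MSRB6, a methionine sulfoxide reductase that repairs oxidized methionine, stood at 2.02, 2.17 and 2.26 in nhx5-2 and at 0.87, 0.61 and 1.84 in the double knockout. Double knockout replicate 3 thus lay close to nhx5-2, and the difference was −1.04 ± 0.23 (adjusted p 0.0193), between −1.41 and −0.79 when 1 of the 6 arrays was left out. The call of AT2G10940 ended without any 1 of the 6 arrays (adjusted p up to 0.153), and that of MSRB6 without nhx5-2 replicate 2 or 3 or double knockout replicate 1 or 2 (up to 0.101).

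**Figure D2:**
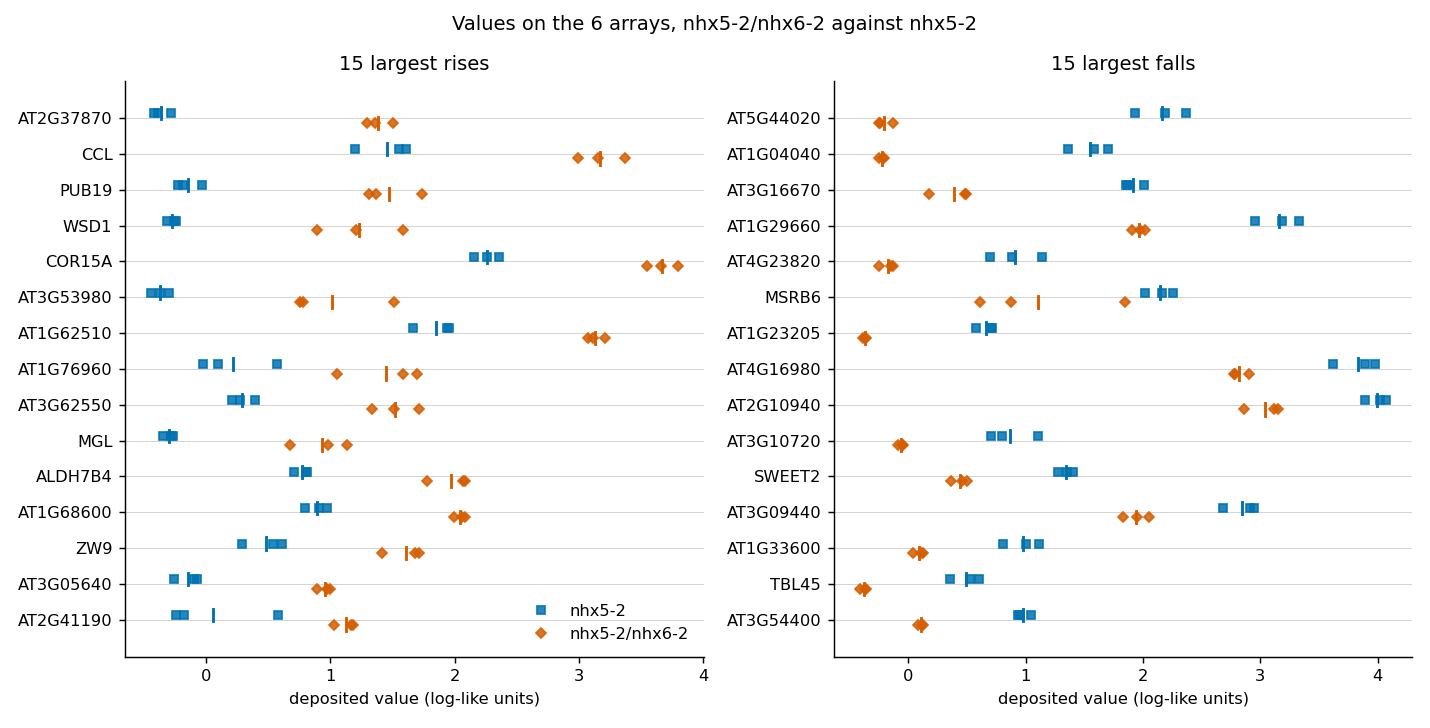
Deposited values of the 15 genes with the largest rises (left) and the 15 with the largest falls (right) on the 3 nhx5-2 arrays (blue squares) and the 3 nhx5-2/nhx6-2 arrays (orange diamonds), with vertical bars at the means. The groups do not overlap for any of the 30 genes, which the rule for naming required; nhx5-2 replicate 1 of AT2G41190 (0.58) and nhx5-2/nhx6-2 replicate 3 of MSRB6 (1.84) stand nearest to the other group.

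The rises were led by AT2G37870, of the family of lipid transfer and seed storage proteins. It stood at −0.42, −0.28 and −0.38 on the nhx5-2 arrays and at 1.5, 1.36 and 1.3 on the double knockout arrays. The gap between the groups was many times the spread within either, and wild type, at a mean of −0.37, lay with nhx5-2. The difference was 1.75 ± 0.20 units (SE), about 5.93-fold, with an adjusted p of 0.00076. A pair of further genes of that family were among the 15. AT3G53980 stood at −0.44, −0.30 and −0.37 against 1.51, 0.78 and 0.75, and AT1G62510 at 1.66, 1.95 and 1.94 against 3.11, 3.21 and 3.07. They rose by 1.39 ± 0.17 and 1.28 ± 0.17 units, while AT2G10940, named above, moved the other way.

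CCL, a gene whose transcript cycles with the day, stood at 1.2, 1.55 and 1.61 in nhx5-2 and at 3.37, 2.99 and 3.15 in the double knockout. The groups lay far apart, and the difference was 1.72 ± 0.15 (SE, about 5.75-fold, adjusted p 0.000125), with wild type at a mean of 1.13. GI, the other clock gene measured, differed by 0.15 ± 0.069 and did not pass (adjusted p 0.252).

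Of the 6 measured members of a list of genes known to respond to drought, cold and abscisic acid, 4 rose, none fell and 2 did not pass, against 2.76% higher over all probe sets. The list held 26 genes. This list and those below were chosen with earlier results of these data known, so their counts are not independent support. The median difference was 1.01 units, against −0.0032 over all. PUB19, a ubiquitin ligase induced by drought and abscisic acid, stood at −0.18, −0.035 and −0.23 in nhx5-2 and at 1.73, 1.31 and 1.36 in the double knockout. COR15A, which codes for a protective protein of the chloroplast stroma, stood at 2.26, 2.36 and 2.16 against 3.79, 3.54 and 3.66, and its close relative COR15B at 0.93, 1.12 and 0.91 against 1.88, 1.77 and 1.75. The aldehyde dehydrogenase gene ALDH7B4 stood at 0.71, 0.81 and 0.81 against 2.06, 2.08 and 1.77. In each of the 4 the groups lay apart, as in 1236 of the 1239 probe sets that passed and 29.5% of all tested. The differences were 1.62 ± 0.33, 1.41 ± 0.33, 0.81 ± 0.20 and 1.2 ± 0.30 units (SE). PUB19, COR15A and ALDH7B4 were also among the 15 largest rises. The dehydrin genes COR47 and LTI30 differed by 0.75 ± 0.25 and 0.55 ± 0.28 (adjusted p 0.109 and 0.334). The standard errors of this list were among the widest of the genes named, and they come from the other genotypes as well: PUB19 had an SD of 0.81 over the nhx6-2 arrays, against 0.10 in nhx5-2. On nhx6-2 replicate 3 PUB19 stood at 1.13 and COR15A at 3.45. On nhx6-2 replicates 1 and 2 they stood at −0.24 and −0.30, and at 1.85 and 1.90. ALDH7B4 (2.24), COR47 (2.14) and LTI30 (0.87) on replicate 3 lay above every double knockout array, while PUB19, COR15A and COR15B lay below. With the 3′ minus 5′ covariate 0 of the 6 passed. Between 0 and 1 of the 6 members passed when a single array of the compared groups was left out, the highest adjusted p being 0.0728 for PUB19, 0.105 for COR15A, 0.123 for COR15B and 0.124 for ALDH7B4.

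Further rises among the 15 were WSD1, an enzyme of wax ester synthesis (1.5 ± 0.26), MGL, which breaks down methionine (1.23 ± 0.18), and AT3G62550, of the universal stress protein family (1.23 ± 0.15). AT1G68600, of a family of malate transporters, rose by 1.15 ± 0.19 and AT3G05640, a protein phosphatase of the PP2C group, by 1.1 ± 0.14. AT1G76960 rose by 1.23 ± 0.24 and ZW9, of the TRAF-like family, by 1.12 ± 0.29. AT2G41190, an amino acid transporter family gene, stood at 0.58, −0.18 and −0.24 in nhx5-2 and at 1.16, 1.18 and 1.03 in the double knockout. The high value in nhx5-2 belonged to replicate 1, and the difference of 1.07 ± 0.28 became 1.33 without that array. The calls of ZW9 and AT2G41190 ended without single arrays (adjusted p up to 0.141 and 0.142), and that of AT1G76960 without double knockout replicate 1 (0.0553). With the 3′ minus 5′ signal entered as covariate, all 30 genes of the plot by array kept their sign and none passed, AT5G44020 standing at −2.24 (adjusted p 0.11) and CCL at 1.36 (0.334).

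Autophagy delivers parts of the cytoplasm to the vacuole in vesicles whose membrane carries ATG8 proteins. Of 11 measured autophagy genes 4 rose, none fell and 7 did not pass, against 2.76% higher over all probe sets. In the brightest of 5 bins by level 324 of 4549 probe sets rose. All 11 differences were above 0, with a median of 0.30 units. ATG8C stood at 0.45, 0.64 and 0.69 in nhx5-2 and at 1.06, 1.1 and 1.09 in the double knockout, and the gene listed as APG8A at 0.12, 0.22 and 0.23 against 0.73, 0.61 and 0.60. Both groups lay apart for each gene, as in 1236 of the 1239 probe sets that passed and 29.5% of all tested. The differences were 0.49 ± 0.090 and 0.46 ± 0.085 (SE, adjusted p 0.00806 and 0.00805). ATG8G rose by 0.30 ± 0.054, and ATG3, the enzyme that joins ATG8 to lipid, by 0.34 ± 0.079 (adjusted p 0.0251). The 7 that did not pass ran from 0.092 (ATG8H) to 0.43 (the gene listed as APG8H). Between 2 and 4 members passed without single arrays, fewest without double knockout replicate 1. None passed once the 3′ minus 5′ signal was a covariate, where APG8A stood at 0.27 (adjusted p 0.99). The call of ATG3 ended without nhx5-2 replicate 1 or 3 or any double knockout array (adjusted p up to 0.111).

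Vacuolar processing enzymes are proteases that mature other vacuolar proteins. Among the 5 vacuolar proteases with a probe set, 3 rose, none fell and 2 did not pass, against 2.76% higher over all probe sets. In the brightest of 5 bins by level 324 of 4549 rose. Their median difference was 0.45 units. GAMMA-VPE stood at 1.63, 1.62 and 1.64 in nhx5-2 and at 2.29, 2.34 and 2.1 in the double knockout, and BETA-VPE at 0.072, −0.053 and −0.14 against 0.52, 0.52 and 0.43. APA1, an aspartic protease, stood at 2.79, 3.00 and 2.82 against 3.32, 3.31 and 3.33. The groups lay apart for all 3, as in 1236 of the 1239 probe sets that passed and 29.5% of all tested. The differences were 0.61 ± 0.14, 0.53 ± 0.12 and 0.45 ± 0.11 (SE). DELTA-VPE, at 0.054, lay near the level without a target, and ALPHA-VPE differed by −0.13. With the 3′ minus 5′ covariate 0 of the 5 passed. Between 0 and 1 of the 5 passed when a single array was left out, with adjusted p up to 0.107 for GAMMA-VPE, 0.0866 for BETA-VPE and 0.0931 for APA1.

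Genes of the compartments in which NHX5 and NHX6 act were measured sparsely. ARA6, a small GTPase of endosomes, differed by 0.21 ± 0.11, and the gene of the ECHIDNA protein of the trans-Golgi network, AT1G09330, by −0.10 ± 0.068, and neither passed. Of 6 measured subunits of the vacuolar-type proton pump none passed, with differences from −0.21 (VHA-A3) to 0.17 (VHA-A2, adjusted p 0.0823). VHA-A1, the pump subunit of the trans-Golgi network, differed by −0.0072 ± 0.069. CHX20, the cation exchanger measured, differed by −0.021 ± 0.11. In the endoplasmic reticulum, none of 5 measured folding genes passed, and 4 of the 5 differences were above 0. The calnexin gene AT5G07340 stood nearest to the threshold, at 0.30 ± 0.081 (adjusted p 0.051), and ATERDJ3B at 0.40 ± 0.13 (0.109). On ATERDJ3B, double knockout replicate 3 lay at 0.956, inside the nhx5-2 range of 0.786 to 1.03, and the other double knockout arrays at 1.40 and 1.54. Without that array 2 of the 5 passed, and 1 with arrays shifted to a common median.

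Of 9 measured glutaredoxins and methionine sulfoxide reductases of one list none rose, 2 fell and 7 did not pass, against 2.69% lower over all probe sets. The median was −0.25, and 0 of the 9 passed with the 3′ minus 5′ covariate. AT1G06830, a glutaredoxin family gene, stood at 0.88, 1.01 and 0.72 in nhx5-2 and at 0.078, −0.045 and 0.017 in the double knockout, a difference of −0.85 ± 0.084 (SE, adjusted p 0.000311). MSRB6 was the other. The glutaredoxin genes AT4G15690, AT4G15680, AT4G15660 and AT4G15700, whose near-identical sequences may share probes, differed by −0.38, −0.34, −0.25 and −0.17 and did not pass. AT2G47880, a glutaredoxin gene outside the list, rose and is described with the non-additive effects.

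Of 5 measured flavonoid genes 2 fell, against 2.69% of all probe sets: CHIL, a chalcone isomerase-like protein, by 0.43 ± 0.12 units and HYH, a transcription factor of light responses, by 0.33 ± 0.068. DFR, UF3GT and UGT78D2 differed by 0.29, 0.19 and −0.12 and did not pass. CHIL lost its call without any 1 of the 6 arrays (adjusted p up to 0.174), and 0 of the 5 passed with the 3′ minus 5′ covariate. HYH lost its call without nhx5-2 replicate 2 or double knockout replicate 1 or 3 (adjusted p up to 0.0646). Among 6 nuclear genes of photosynthesis with a probe set 1 fell, against 2.69% of all probe sets and 286 of 4549 in the brightest bin. It was the light-harvesting gene LHCB4.3, by 0.57 ± 0.13 (adjusted p 0.0262, up to 0.113 without single arrays). With the 3′ minus 5′ covariate LHCB4.3 stood at −0.087 (adjusted p 0.99). The other 5, LHCB4.1, LHCB4.2, RCA, PSBW and PSBY, differed by 0.26 to 0.44 and did not pass. Their levels, at 3.97 units or more on each of the 6 arrays, are those of a green tissue. None of 69 chloroplast-encoded genes passed, their median being −0.16 and 12 of them lying above 0, and none of 22 probe sets of mitochondrion-encoded genes passed, with a median of 0.059. Of 7 measured genes of cell wall loosening (expansins and xyloglucan-modifying enzymes) none passed, EXPA8 standing at −0.74 ± 0.24 (adjusted p 0.106).

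**Figure D3:**
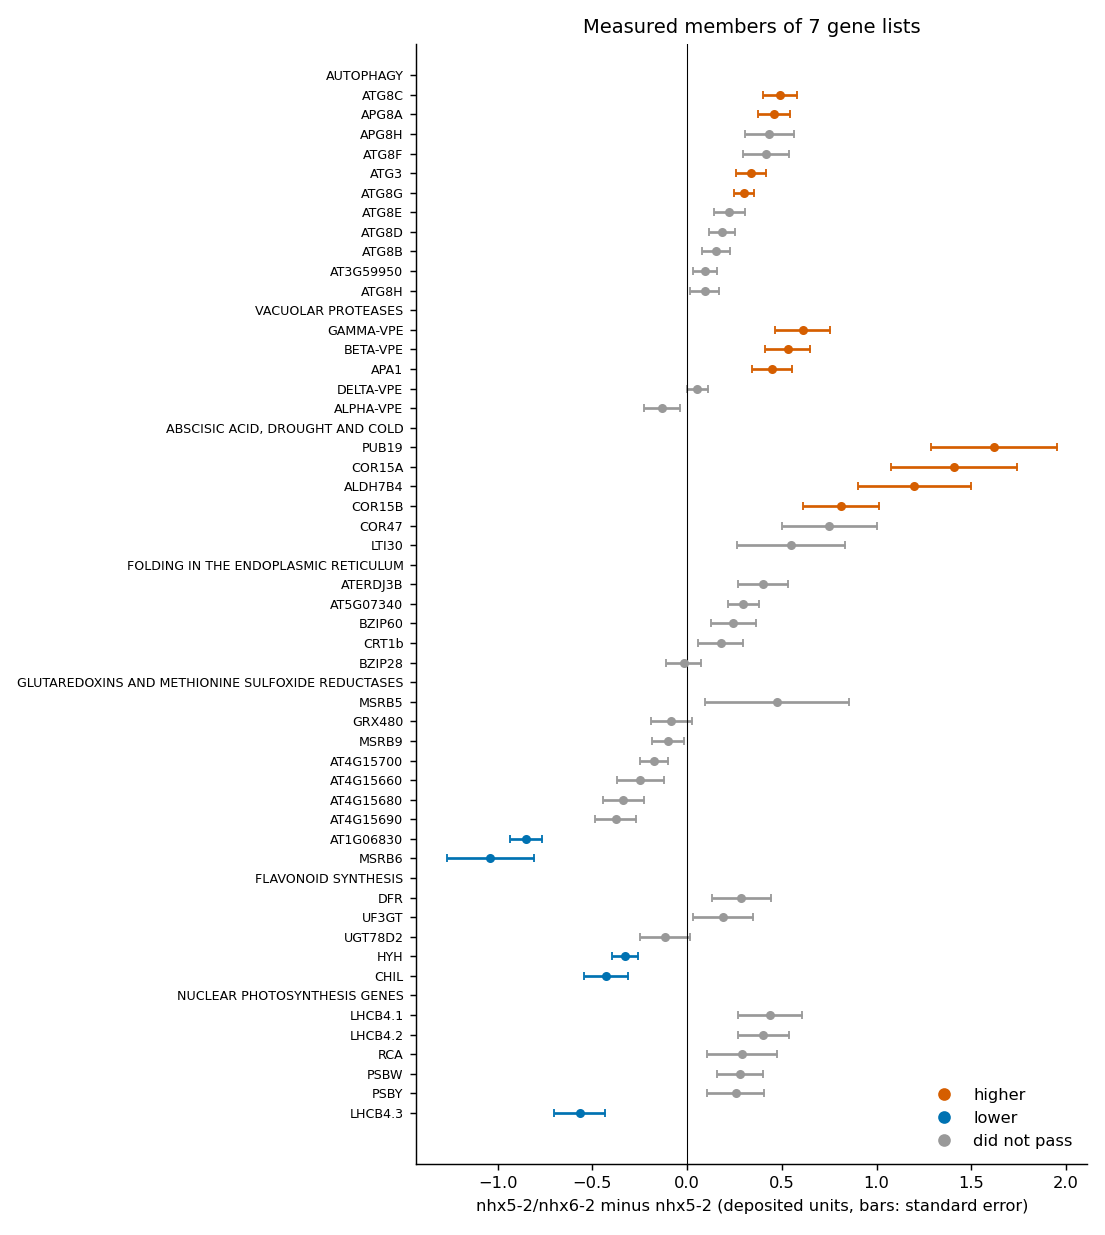
Difference nhx5-2/nhx6-2 minus nhx5-2 in deposited units, with standard errors, for the measured members of 7 gene lists; orange points rose, blue points fell and grey points did not pass the test. All 11 autophagy members lie above 0 with 4 that rose, and among glutaredoxins and methionine sulfoxide reductases 2 fell.

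Markers of other cell types were few. Of 2 measured guard cell markers AT1G22690, known as GC1, stood at 1.07, 1.24 and 1.3 in nhx5-2 and at 0.42, 0.30 and 0.52 in the double knockout, and fell by 0.79 ± 0.11 units (SE, adjusted p 0.00177). With the 3′ minus 5′ covariate AT1G22690 stood at −0.90 (adjusted p 0.436). FMA, the guard cell transcription factor gene FAMA, differed by −0.025 and did not pass. Over all probe sets 2.69% fell. The summed level of the pair ran from 0.763 to 1.09 in nhx5-2 and from −0.0010 to 0.24 in the double knockout, and its part in the other results was not tested. The trichome gene TRY differed by −0.27 ± 0.074 (adjusted p 0.052) and the vascular sugar transporter gene SWEET11 by −0.044. The root gene EXPA7 and the meristem gene CLV3 lay at the level without a target in both groups.

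The same insertion was also measured with NHX5 present, as nhx6-2 minus wild type, a comparison that shares no array with nhx5-2/nhx6-2 minus nhx5-2, although all 15 arrays share the spread behind the tests. There 66 probe sets changed (0.29%), 6 higher (0.0264%) and 60 lower (0.264%), against 1239 without NHX5. Among the 628 that rose in the nhx5-2 background, 460 (73.2%) were also above 0 with NHX5 present, against 47.5% of all probe sets, but their median difference was 0.066 units. Among the 611 that fell, 485 (79.4%) were also below 0, against 52.5%, with a median of −0.12. The median of the 15 named rises was 1.23 units in the nhx5-2 background and 0.26 with NHX5 present, and that of the 15 named falls −1.01 and −0.14. The probe sets and genes were chosen by their differences in the nhx5-2 background, which favours larger medians there. Without wild type replicates 1 and 3 the count of 66 became 7 and 9, and without nhx6-2 replicates 1 and 3 it became 14 and 37. It was 7 once the 3′ minus 5′ signal was a covariate.

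Some genes fell under both conditions. The falls had 34 probe sets in common, 5.56% of the 611 and 56.7% of the 60, and 14 of these had 1 gene. AT3G09440 fell by 0.904 units in the nhx5-2 background and by 0.59 with NHX5 present (adjusted p 0.0397). CHIL fell by 0.43 and 0.80 units, and HYH by 0.33 and 0.54, so both were lower with or without NHX5. EXLA1, an expansin-like gene picked after its values were seen, fell by 0.73 and 0.69. The rises had 4 probe sets in common, which were picked by that overlap. BIM1, which codes for a partner of brassinosteroid transcription factors, differed by 0.17 in the nhx5-2 background and 0.26 with NHX5 present, and Fes1B, a chaperone partner, by 0.39 and 0.44. A probe set shared by AT3G42570 and AT3G17070 and one without a listed gene were the others. The call of BIM1 in the nhx5-2 background ended without any 1 of the 6 arrays (adjusted p up to 0.169).

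Whether the effect of nhx6-2 differed with and without NHX5 was tested as a difference of the differences. This non-additive effect passed for 22 probe sets (0.0967%), 10 above 0 (0.044%) and 12 below (0.0528%), of which 11 had 1 gene. The pair of acid phosphatase-like genes carried large values: AT5G44020 fell by 2.37 units in the nhx5-2 background and differed by −0.19 with NHX5 present, a non-additive effect of −2.18 ± 0.23 (SE, adjusted p 0.00525). For AT1G04040 the differences were −1.77 and −0.33, and the effect was −1.44 ± 0.18 (0.0139). AT3G16670 differed by −1.52 and 0.068, and the effect was −1.59 ± 0.23 (0.0281). In these genes both single knockouts lay far nearer to wild type than the double knockout did. AT1G76240 and SWEET2 gave effects of −0.88 ± 0.15 and −0.61 ± 0.10 (adjusted p 0.0445 and 0.048). AT1G64380 had another shape and was left out by the naming rule, as it did not pass in the main comparison. It rose by 0.40 with NHX5 present (adjusted p 0.00745) and differed by −0.17 in the nhx5-2 background. Its non-additive effect was −0.56 ± 0.072 (adjusted p 0.0139).

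In the 4 rises that met the naming rule for the non-additive effect, the double knockout again stood apart from wild type and both single knockouts. The rule required a pass in the main comparison too, which favours this shape. AT2G47880, the glutaredoxin gene, stood at 0.43, 0.47 and 0.25 in nhx5-2 and at 1.48, 1.33 and 1.28 in the double knockout, against means of 0.53 in wild type and 0.26 in nhx6-2. Its non-additive effect was 1.25 ± 0.20 (adjusted p 0.0436). HIS1-3, a drought-induced linker histone, lay near the level without a target in wild type (−0.64), nhx6-2 (−0.63) and nhx5-2 (−0.58) and at 0.28 ± 0.13 (SD, n = 3) in the double knockout. Its non-additive effect was 0.85 ± 0.14 (SE), and 3 of the 4 means behind it are near the floor of the scale. AT4G01390, of the TRAF-like family, gave 0.84 ± 0.13 and AT1G01250, an ERF family transcription factor gene, 0.75 ± 0.13 (adjusted p 0.0431 and 0.048). Of the 15 largest rises in the main comparison none passed for the non-additive effect, and AT3G53980 stood closest (1.35 ± 0.23, adjusted p 0.0522). All 15 effects were above 0, but the rise by which these genes were chosen is part of the effect, which favours that sign. The count of 22 is fragile. It was 0 with the 3′ minus 5′ signal, which separates nhx6-2 from wild type too, entered as covariate. It was 13, 2 and 4 without nhx5-2 replicates 1, 2 and 3, 3, 4 and 7 without nhx5-2/nhx6-2 replicates 1, 2 and 3, 3, 8 and 148 without nhx6-2 replicates 1, 2 and 3, and 3, 4 and 6 without wild type replicates 1, 2 and 3.

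**Figure D4:**
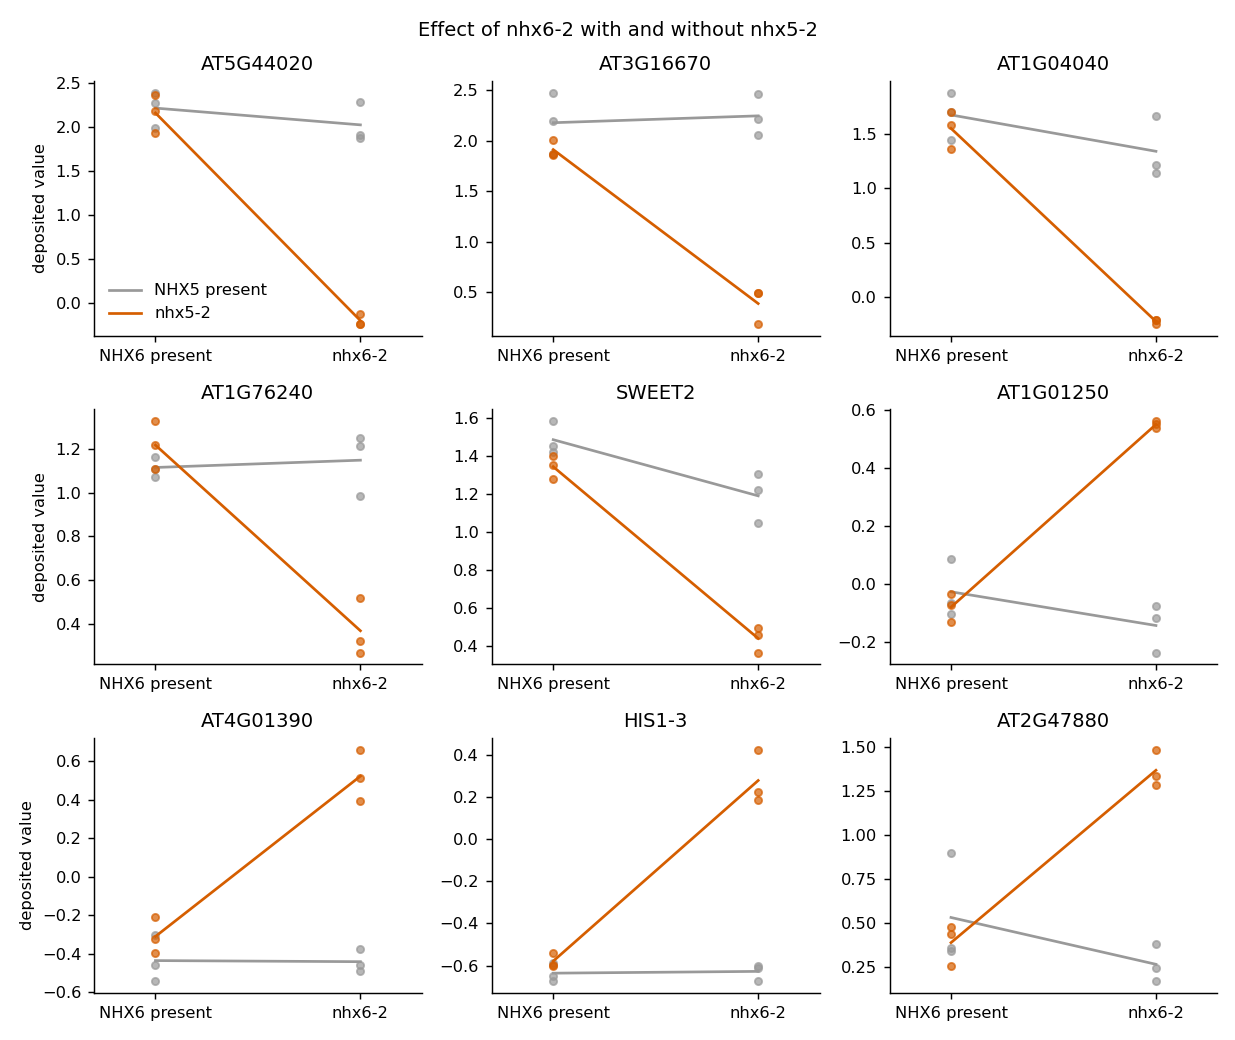
Deposited values of the 9 genes named for the non-additive effect on each array, with lines between the means, as NHX6 is lost with NHX5 present (grey, wild type to nhx6-2) and in the nhx5-2 background (orange, nhx5-2 to nhx5-2/nhx6-2). In AT5G44020 the orange line falls by 2.37 units while the grey line changes by −0.19, and in AT2G47880 the orange line rises to 1.37 while the grey one ends at 0.26.

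The changes were then set beside those of the double knockout made of other insertions, nhx5-1/nhx6-1 minus wild type, which shares no array with nhx5-2/nhx6-2 minus nhx5-2. The nhx5-2 pair differs by the loss of NHX6 alone, and the other pair by the loss of both genes. In the other pair 2736 probe sets changed (12%), 1166 higher (5.13%) and 1570 lower (6.9%). Of the 628 rises, 578 (92.0%) were above 0 in the other pair, against 52.2% of all probe sets, and 347 rose there, which is 55.3% of the 628 and 29.8% of the 1166. Of the 611 falls, 594 (97.2%) were below 0 in the other pair, against 47.8% of all, and 469 fell there, 76.8% of the 611 and 29.9% of the 1570. Median differences in the other pair were 0.30 units for the rises and −0.42 for the falls, beside 0.42 and −0.39 in the nhx5-2 background. Across all 22746 probe sets the pairs correlated at r = 0.648, and at 0.698 without nhx5-2 replicate 1 and nhx5-1/nhx6-1 replicate 3, the arrays of low SD. Probe sets are not independent of each other, and the 3′ minus 5′ signal was higher in the double knockout of either pair. The number that passed the same way in both, 816 in all, was 742 without nhx5-2 replicate 1, 453 and 428 without nhx5-2 replicates 2 and 3, and 291, 464 and 447 without nhx5-2/nhx6-2 replicates 1, 2 and 3. It was 1 with the 3′ minus 5′ covariate, 1347 without both arrays of low SD, 1447 with quantile normalization and 2953 with array weights.

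All 15 named falls also fell in nhx5-1/nhx6-1. AT5G44020 differed there by −2.18 ± 0.16, AT1G04040 by −1.86 ± 0.13, AT3G16670 by −1.86 ± 0.16 and SWEET2 by −1.12 ± 0.073 (SE). All 15 named rises were above 0 there and 10 of them rose, CCL by 1.69 ± 0.15, AT3G62550 by 1.35 ± 0.15 and AT3G05640 by 1.33 ± 0.14. The 5 that did not pass were AT2G37870 (0.52 ± 0.20), AT3G53980 (0.17 ± 0.17), WSD1 (0.83 ± 0.26), COR15A (0.96 ± 0.33) and ZW9 (0.86 ± 0.29). For the lipid transfer family genes AT2G37870 and AT3G53980 the difference between the pairs of lines was 1.23 ± 0.28 and 1.22 ± 0.23 and did not pass either (adjusted p 0.19 and 0.119), so these rises are not shown to be particular to nhx5-2/nhx6-2.

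**Figure D5:**
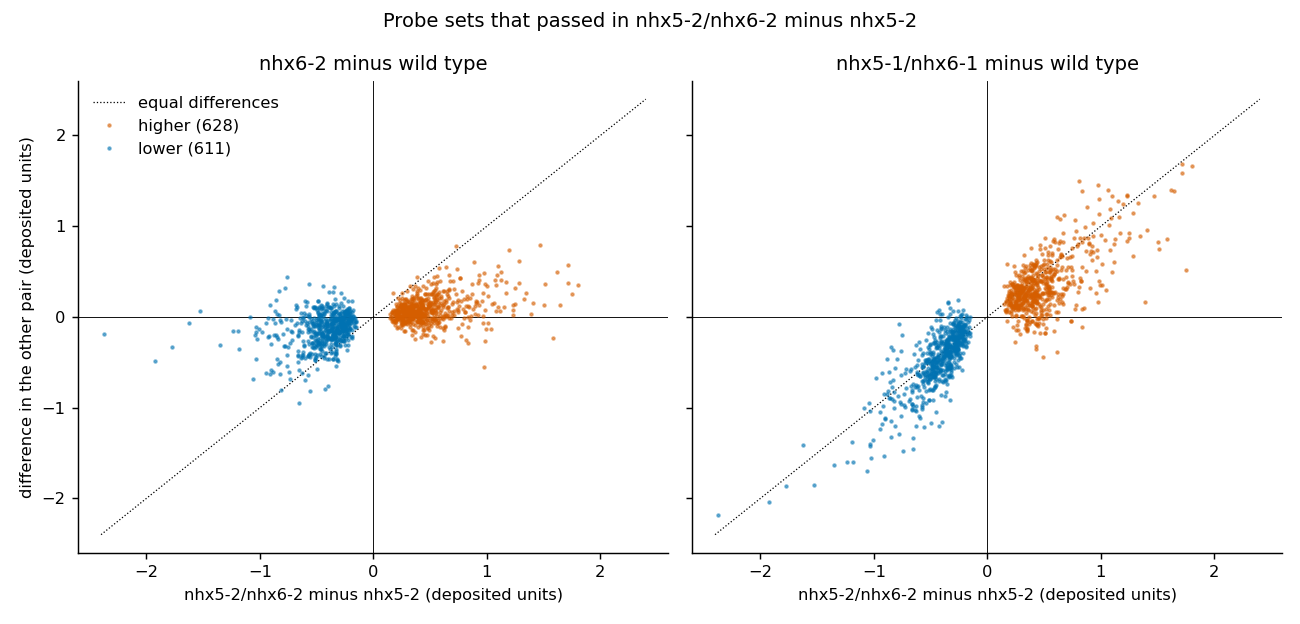
For the probe sets that passed in nhx5-2/nhx6-2 minus nhx5-2 (horizontal axis; 628 higher in orange, 611 lower in blue), the difference in nhx6-2 minus wild type (left) and in nhx5-1/nhx6-1 minus wild type (right), in deposited units; the dotted line marks equal differences. On the left the points spread around medians of 0.066 and −0.12, and on the right around 0.30 and −0.42.

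The difference between the pairs of lines passed for 14 probe sets (0.0615%), 11 above 0 (0.0484%) and 3 below (0.0132%), and 4 of these had 1 gene. It sets the loss of NHX6 alone against the loss of both genes, so it does not compare the alleles alone. HYH fell by 0.33 units in the nhx5-2 background and by 0.92 in the other pair, and BIM1 rose by 0.17 and 0.58. AT5G51890, a peroxidase family gene, rose by 0.43 in the nhx5-2 background and was lower in the other pair, at −0.35. AT1G64380, an ERF family gene, differed by −0.17 in the nhx5-2 background (adjusted p 0.0763) and rose by 0.40 in the other pair. HYH and AT1G64380 stood at means of 0.29 and 0.026 in nhx5-2, against 0.70 and −0.29 in wild type. For BIM1 and AT5G51890 the means were 0.069 and 0.29 in nhx5-2, against −0.029 and 0.27 in wild type. Opposite calls were made for 4 probe sets, AT5G51890, AT3G18280 (0.43 and −0.32), which belongs to the lipid transfer protein family, and a pair without a listed gene.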

How the data were processed

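The authors deposited a single table of scores for the 15 arrays, log-like values whose mean is near 0 on each array. The sources used here do not state how they were background-corrected, summarized or normalized, or their log base. The score was used as it stands, where the planned design had allowed for log or linear values. Of 22810 probe sets, 64 controls were left out of the tests. Genes were assigned by the platform annotation: 13513 probe sets had 1 gene, 503 several and 8730 none listed.

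With limma 3.58.1 in R 4.3.3, all 15 arrays entered 1 linear model holding a mean for each genotype. Benjamini-Hochberg adjustment ran over the 22746 probe sets, and the threshold was 0.05. The contrasts were nhx5-2/nhx6-2 minus nhx5-2, nhx6-2 minus wild type, nhx5-1/nhx6-1 minus wild type, and the differences between these. The difference between the pairs of lines, the organelle gene lists and the neighbours of NHX5 and NHX6 were added after the data were seen. Fold values divide a difference by 0.681 units per doubling (SD 0.0281 over the 15 arrays), the slope of 9 spike-in probe sets on the maker's nominal concentrations, assumed to be 1.5, 5, 25 and 100 pM. That slope need not hold for dim transcripts. The level without a target is the median of 27 control probe sets.

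Genes were named by rule: probe sets with 1 gene, passing the test, without overlap between the 3 and 3 arrays and with the higher group above the level without a target, the 15 largest each way. For the non-additive effect up to 5 each way passing both tests were named, and from each list up to 4 with the smallest p, with further list members given as values. The comparison, the 32 gene lists, with 83 of 460 genes measured, and the naming rule were chosen with earlier results of these data known. List genes without a value have no listed probe set. On simulated arrays with independent normal noise, the fit recovered 71% of 100 changes of 0.5 units and 95% of 100 of 1 unit. It made 13 false calls. The simulation held no array of low SD and no shift of the 3′ minus 5′ signal, so it does not test their part. The number of arrays limits the precision. The main fit used no replicate block.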

Additional observations from a re-analysis of the deposited data

Results flagged for a closer look

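The effect of nhx6-2 differed with and without nhx5-2, by the test of the difference itself, for 22 probe sets. Those named by the rule were AT5G44020 (−2.18 units), AT3G16670 (−1.59), AT1G04040 (−1.44), AT1G76240 (−0.88), SWEET2 (−0.61), AT2G47880 (1.25), HIS1-3 (0.85), AT4G01390 (0.84) and AT1G01250 (0.75).

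The change in nhx5-2/nhx6-2 minus nhx5-2 differed from that in nhx5-1/nhx6-1 minus wild type, again by the test of the difference, for 14 probe sets. With 1 gene these were AT5G51890 (0.78 units), HYH (0.59), AT1G64380 (−0.57) and BIM1 (−0.41). The test sets the loss of NHX6 alone against the loss of both genes. The groups held 3 arrays each, too few for a check of single arrays by their gap to the others.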

How the results depend on the processing

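Each alternative keeps the sign of the 30 genes named in the main comparison, of which 4 to 8 lost their call without a single array. For nhx5-2/nhx6-2 minus nhx5-2, the count of 1239 became 2248 with quantile normalization, 2095 without both arrays of low SD, 1931 in a fit of the 6 arrays alone, 5116 with array weights and 1 with the 3′ minus 5′ signal entered as covariate, and ran from 359 to 930 without single arrays. It was 911 with arrays shifted to a common median, 1675 with a common median and SD, 1304 with dim probe sets removed and 1055 with the replicate number as a block, under which 4 of the 30 genes did not pass. Same-numbered replicates did not deviate together (correlations 0.087, −0.048 and −0.20), and not every nhx5-2 array correlated best with its own number. The non-additive count of 22 became 9, 141 and 318 under the 3 normalizations, 200 without both arrays of low SD, 6 with the replicate block, 0 with the covariate in the limma fit and 2665 with array weights, and ran from 2 to 148 without single arrays. For nhx6-2 minus wild type the count of 66 became 34, 167 and 247 under the normalizations, 396 without both arrays of low SD, 7 with the covariate and 1454 with array weights, and ran from 7 to 54 without single arrays. For nhx5-1/nhx6-1 minus wild type 2736 became 24 with the covariate and 6955 with array weights, and ran from 1479 to 2872 without single arrays. The cause of these shifts was not tested. The default method of array weights did not converge, and its gene-by-gene method was used instead, chosen after seeing this; it gave nhx5-2 replicate 1 a weight of 0.157 and nhx5-1/nhx6-1 replicate 3 a weight of 0.0856. At unadjusted p under 0.05, 4285 probe sets passed in the main comparison and 1088 with the covariate, and for the non-additive effect 2252 and 529.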
